A study of Mus musculus with 18 samples.

Results

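The 5 kainate receptor subunit genes Grik1, Grik2, Grik3, Grik4 and Grik5 and the 2 genes of their auxiliary proteins, Neto1 and Neto2, were followed across 3 brain regions of wild-type (WT) and Pcm1-/- mice. The set was chosen by a readout of these libraries, the Grik1 level in mutant and WT striatum, and was then widened to the whole gene family. The 7 genes are 7 of 38561 genes counted, and all 7 reached 10 counts in 1 or more of the 18 libraries, the filter that 17545 genes passed. RNA was sequenced from frontal cortex, striatum and hippocampus of adult mice, with 3 libraries per genotype and region. The mice were labelled C57 Bl6J, and the mutants, labelled PCM1 KO, carried a gene trap in Pcm1, which encodes a scaffold protein of the granules around the centrosome. The trap came from cultured embryonic stem cells (parental line E14Tg2a.4) and was backcrossed for at least 3 generations, and the WT mice were littermates. Animal tags of the submitters assign the 18 libraries to 3 WT and 3 mutant mice, each of which gave all 3 regions. The comparison between genotypes asks what the loss of Pcm1 does to the RNA of each region, and that between regions asks where each transcript is found.

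Kainate receptors are glutamate-gated cation channels of 4 subunits, which act on both sides of the synapse and tune transmitter release and the excitability of neurons. The products of Grik1, Grik2 and Grik3 form channels by themselves, whereas those of Grik4 and Grik5 bind kainate tightly but need a partner from the other group. The Neto proteins sit beside the channel in the membrane and slow its gating. In the hippocampus, receptors with the products of Grik2, Grik4 and Grik5 are known from the mossy fibre synapse, and Grik1 is known from interneurons.

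Editing of the pore is a known feature of the family. In Grik1 and Grik2 the CAG codon for glutamine in the pore loop can be recoded to arginine in the RNA by the editing enzyme encoded by Adarb1. The coding sequence around this codon is shown for all 5 subunits, since it shows how alike the genes are in the part of the channel they share. Each run has 45 bases of GRCm38 transcript sequence (GENCODE M21), read 5′ to 3′ on the strand of the gene, with the codon in capitals. Those of Grik4 (chr9:42547602-42547646, minus strand, exon 16 of 21) and Grik5 (chr7:25022476-25022520, minus strand, exon 15 of 20) lie within 1 exon, and those of Grik1 (chr16:87936099-87940565, minus strand), Grik2 (chr10:49240780-49244352, minus strand) and Grik3 (chr4:125691186-125693978, plus strand) cross an exon junction.
Grik1: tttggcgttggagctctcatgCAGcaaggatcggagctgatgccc
Grik2: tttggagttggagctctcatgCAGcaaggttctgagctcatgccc
Grik3: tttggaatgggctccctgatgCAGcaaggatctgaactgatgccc
Grik4: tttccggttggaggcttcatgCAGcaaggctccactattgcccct
Grik5: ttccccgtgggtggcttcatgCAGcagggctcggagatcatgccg
Grik1 and Grik2 shared 41 of the 45 bases, Grik3 shared 36 with each of them, and Grik4 and Grik5 shared 31 with each other. Grik5 shared as many or more with Grik1 (32) and Grik2 (31), whereas Grik4 shared 28 with each of these. The codon read CAG in the reference of all 5 genes. The counts hold no base calls, so editing itself was not measured.

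Promoter sequences are shown for 3 members whose levels differed most between regions. Grik3 and Neto2 shared an order, with the striatum highest and the hippocampus lowest, and Grik4 had the reverse order. The windows are from RefSeq on GRCm38.p6 and run from 250 bases before the RefSeq gene start to 50 after it, with the gene's own strand printed. For Grik4 this start differs from the GENCODE M21 gene start given further below. They cover chr4:125490446-125490745 for Grik3 (plus strand), chr8:85700875-85701174 for Neto2 (minus strand, the window at the start of the gene) and chr9:42944322-42944621 for Grik4 (minus strand). Capitals mark the GC box, GGGCGG, or its reverse complement CCGCCC.
Grik3: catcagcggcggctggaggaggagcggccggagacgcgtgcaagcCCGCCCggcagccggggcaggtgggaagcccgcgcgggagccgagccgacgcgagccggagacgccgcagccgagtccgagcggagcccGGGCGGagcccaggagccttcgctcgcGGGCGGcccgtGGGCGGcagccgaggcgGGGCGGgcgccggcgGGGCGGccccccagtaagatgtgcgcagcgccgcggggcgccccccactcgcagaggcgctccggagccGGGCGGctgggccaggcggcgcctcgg
Neto2: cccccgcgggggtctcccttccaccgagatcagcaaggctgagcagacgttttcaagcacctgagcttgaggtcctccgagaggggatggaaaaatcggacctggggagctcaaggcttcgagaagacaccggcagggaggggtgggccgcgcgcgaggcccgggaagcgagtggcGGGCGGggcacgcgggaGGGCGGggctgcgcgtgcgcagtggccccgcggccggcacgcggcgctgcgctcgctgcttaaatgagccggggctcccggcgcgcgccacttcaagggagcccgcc
Grik4: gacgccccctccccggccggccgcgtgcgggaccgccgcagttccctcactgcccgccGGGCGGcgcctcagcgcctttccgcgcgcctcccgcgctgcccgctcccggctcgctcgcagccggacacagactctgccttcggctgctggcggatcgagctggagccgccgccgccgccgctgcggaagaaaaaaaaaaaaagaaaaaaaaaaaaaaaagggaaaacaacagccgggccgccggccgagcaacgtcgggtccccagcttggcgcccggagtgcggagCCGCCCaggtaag
The Grik3 window held 7 GC boxes, and those of Neto2 and Grik4 held 2 each. A GC box was present in 35.66% of the 32851 RefSeq promoter windows of the same length. None of these 3 windows held TATAAA or CCAAT on either strand, which occurred in 13.62% and 37.41% of all windows. They were rich in CG dinucleotides, with 50 in Grik3, 42 in Grik4 and 36 in Neto2 against a median of 7. Grik3 and Neto2, with 1 order of regions, and Grik4, with the other, all held GC boxes, and these matches are letters in a window and not sites shown to be bound.

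The libraries held between 24950537 and 33405081 counts on genes. Pcm1 fell from 164 ± 11.97 CPM (counts per 1000000 counts on genes; SD, n = 3) to 16.7 ± 0.826 in the striatum, from 134 ± 14.4 to 12.2 ± 0.0396 in cortex and from 142 ± 3.52 to 12.6 ± 0.732 in hippocampus. Markers fitted the labelled regions: 6 genes of striatal projection neurons summed to 5162 to 6675 CPM in the striatum and to at most 193 CPM elsewhere, and 5 genes of cortical excitatory neurons summed to 29.0 to 95.4 CPM in the striatum and to 1636 to 3065 CPM elsewhere, and 6 hippocampal genes summed to 569 to 721 CPM in the hippocampus and to 148 to 383 CPM elsewhere. The 5 choroid plexus markers varied widely in the hippocampus, from 212 to 6159 CPM. The WT striatum replicate 3 stood apart in its region. There they summed to 5883 CPM, against 30.7 and 32.0 CPM in the other WT striatum libraries and 8.18 to 138 CPM in the mutant ones. It was also the WT striatum library with high counts on 4 genes of the Y chromosome (3836), whereas in the other groups replicate 2 was the library with 2988 to 4306 such counts, and all remaining libraries had 0 to 5. Lane and genotype could not be told apart in the striatum, where all 3 WT libraries came from lane 5 and the mutant ones from lanes 3 and 4. In bulk tissue, fewer cells of a type and less RNA per cell cannot be told apart.

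The genes lie apart in the genome (GRCm38, GENCODE M21). Grik1 (ENSMUSG00000022935) spans chr16:87895900-88290265 on the minus strand, Grik2 (ENSMUSG00000056073) chr10:49094833-49788766 on the minus strand, and Grik3 (ENSMUSG00000001985) chr4:125490700-125714173 on the plus strand. Grik4 (ENSMUSG00000032017) spans chr9:42518135-42944493 and Grik5 (ENSMUSG00000003378) chr7:25009849-25072346, both on the minus strand. Neto1 (ENSMUSG00000050321) spans chr18:86394952-86506718 on the plus strand and Neto2 (ENSMUSG00000036902) chr8:85636588-85700924 on the minus strand. Of exons shared with other counted genes, there were only 59 bases of Grik4 that overlap the small RNA gene Gm24420 on the same strand.

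In WT mice, Grik5 was by far the most abundant kainate subunit transcript in every region. Per kilobase of exon, its level was 61.3 ± 10.8 CPM (SD, n = 3) in striatum, 56.5 ± 3.46 in frontal cortex and 48.3 ± 5.08 in hippocampus. This was 65.7% ± 3.16, 67.2% ± 1.32 and 68.8% ± 0.920 of the summed level of the 5 subunits. The rest was filled differently in each region. Grik3 was second in the striatum and the frontal cortex, with 22.1% ± 1.51 and 20.4% ± 0.652 of the sum, and dropped to 7.81% ± 0.642 in the hippocampus. Grik4 took 15.0% ± 0.887 of the sum in the hippocampus, 7.10% ± 0.533 in cortex and 2.86% ± 0.442 in striatum. The share of Grik2 was 7.97% ± 0.816 in the striatum, 6.19% ± 0.569 in the hippocampus and 3.87% ± 0.385 in the frontal cortex. Grik1 was the scarcest in all 3, at 1.34% ± 0.393, 1.45% ± 0.141 and 2.24% ± 0.385 in striatum, frontal cortex and hippocampus. These shares are of RNA and not of assembled receptors.

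**Figure D1:**
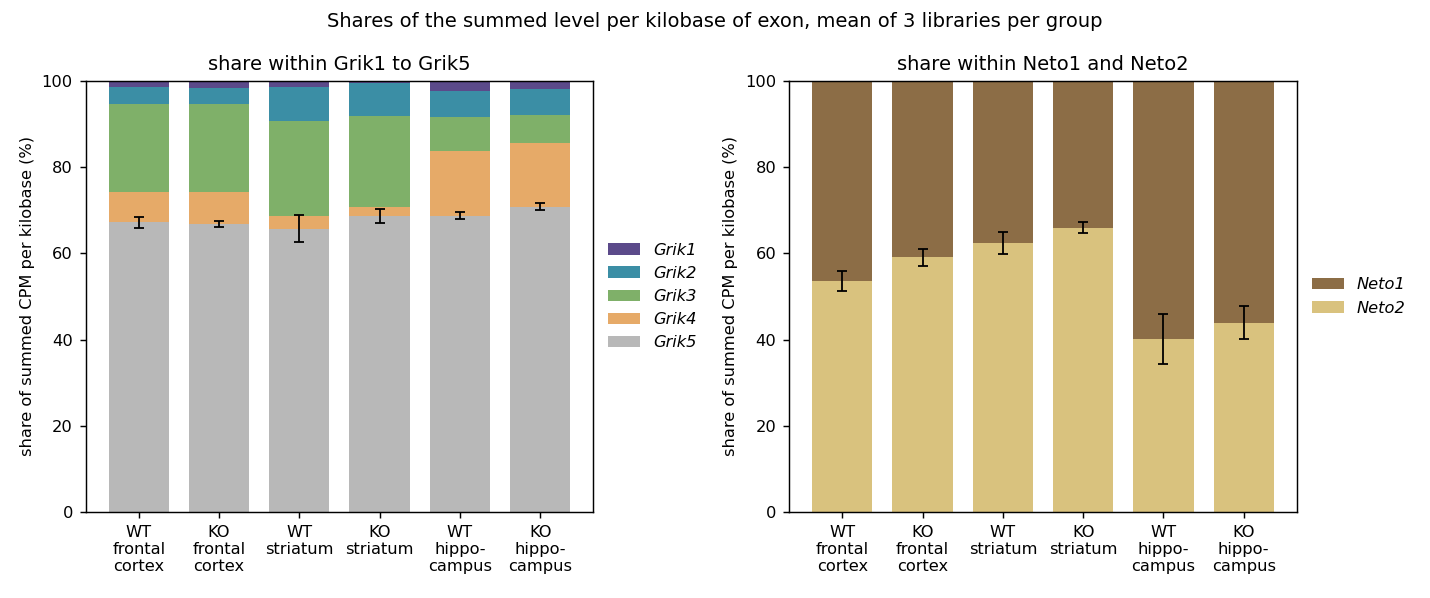
Stacked bars of the share (%) of each gene in the summed CPM per kilobase of exon, within Grik1 to Grik5 (left) and within Neto1 and Neto2 (right), as means of 3 libraries per region and genotype. Error bars are the SD of the Grik5 and of the Neto2 share; Grik5 fills 65.7% to 70.8% of every bar, and Grik4 is widest in the hippocampus.

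Between regions of WT mice, 5 of the 7 members passed the test in striatum against frontal cortex (4 higher, 1 lower), 4 in hippocampus against frontal cortex (2 higher, 2 lower) and 4 in striatum against hippocampus (3 higher, 1 lower). Of all 17545 genes, 41.5%, 29.8% and 29.2% passed in these contrasts, at an adjusted p under 0.05 (edgeR, quasi-likelihood, Benjamini-Hochberg). In the mutant mice, 7, 5 and 7 members passed, against 54.3%, 41.5% and 45% of all genes. Both counts of 7 include Grik1, whose level in mutant striatum chose the family, and nothing is read from its part in them. Members called in the same direction in both genotypes, which share no animals, were Grik2, Grik3, Grik4, Neto1 and Neto2 in striatum against frontal cortex, and Grik2, Grik3, Grik4 and Neto2 in each of the other contrasts. This was 5, 4 and 4 of 7 members, against 37.9%, 25.6% and 27.2% of all genes. The median log2 fold change of the members in WT mice was 0.25, 0.27 and 0.50 in these 3 contrasts, against 0.02, -0.01 and 0.01 over all genes. Without WT hippocampus replicate 2, the members' median was -0.03 in hippocampus against frontal cortex and 0.81 in striatum against hippocampus. In mutant mice the 3 medians were 0.37, 0.02 and 0.48, against 0.02, 0.0045 and 0.0043 over all genes, and the second of these is the value of Grik1 itself. With a change of at least 1.5-fold required too, 2 members passed in WT and 3 in mutant hippocampus against frontal cortex (18.3% and 21% of all genes), and 4 in WT striatum against frontal cortex (26.4%). Among the WT libraries of lane 5, 1 member (Grik3) passed in hippocampus against frontal cortex (6.66%), where each arm was 1 library and the spread came from the 3 striatum libraries alone, so calls lost there say nothing about the lane. The 3 contrasts share libraries, and every test of a region rests on tissue of 3 animals per genotype.

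**Figure D2:**
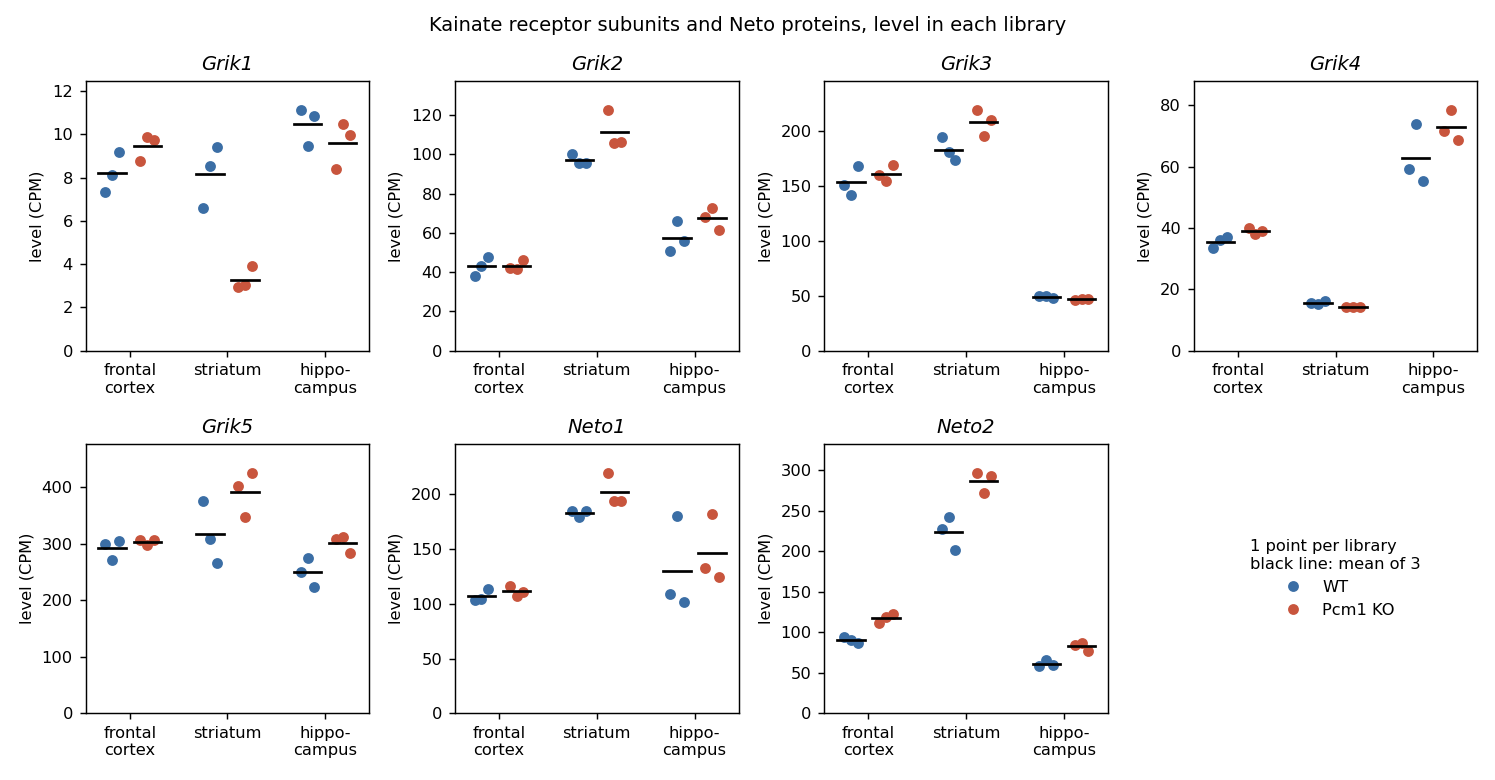
Level of each gene in CPM (y axis, from 0, a scale of its own per gene) in the 3 regions (x axis), with 1 point per library, blue for WT and red for Pcm1 KO, and a black line at the mean of 3. Grik3 and Neto2 peak in the striatum, Grik4 peaks in the hippocampus, and Grik1 in the mutant striatum lies at 2.93 to 3.91 CPM.

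Among the subunits that form channels by themselves, Grik3 had the steepest fall toward the hippocampus. Its level was 195, 181 and 174 CPM in the WT striatum libraries, 151, 142 and 169 CPM in cortex and 49.7, 49.5 and 47.7 CPM in hippocampus. No library of 1 region reached the range of another. The striatum exceeded the hippocampus by 1.91 ± 0.083 (log2 fold change ± SE; edgeR adjusted p = 9.5e-08) and the frontal cortex exceeded it by 1.66 log2 units, the contrast of hippocampus against frontal cortex being -1.66 ± 0.083 (edgeR adjusted p = 8.0e-07). The step from cortex to striatum was small, at 0.25 ± 0.080 (edgeR adjusted p = 0.0275). It was 0.20 (edgeR adjusted p = 0.138) with the lane as a covariate, 0.11 in lane 5 (3 WT striatum libraries against 1 of frontal cortex, the highest of its group), and lay between 0.20 and 0.32 when 1 library was left out, with the call lost without WT striatum replicate 1 or 2 or frontal cortex replicate 1 or 2. In the mutants the same 3 differences were 2.16 ± 0.062, -1.79 ± 0.062 and 0.37 ± 0.059 on the log2 scale (edgeR adjusted p = 9.8e-10, 2.0e-08 and 0.00032).

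Grik2, whose product is a major subunit of receptors in principal neurons, was highest in the striatum. The WT striatum libraries read 100.3, 95.9 and 95.6 CPM, the hippocampus 50.9, 66.0 and 55.7 CPM, and the frontal cortex 38.3, 42.9 and 47.9 CPM. The 3 regions did not overlap. Striatum exceeded frontal cortex by 1.18 ± 0.11 (log2; edgeR adjusted p = 1.5e-05) and hippocampus by 0.76 ± 0.11 (edgeR adjusted p = 0.00036), and hippocampus exceeded frontal cortex by 0.42 ± 0.11 (edgeR adjusted p = 0.0164). Without WT frontal cortex replicate 1, the last of these was 0.34 (edgeR adjusted p = 0.0568), and within lane 5, with 1 WT library against 1, the value was 0.23. The mutant mice gave 1.37 ± 0.082, 0.74 ± 0.081 and 0.63 ± 0.082 for the 3 contrasts (edgeR adjusted p = 2.1e-07, 2.6e-05 and 0.00014), in the same order of regions.

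Grik1 was the rarest transcript of the family and had 1.28 times between its highest and lowest WT mean, against 1.27 for Grik5. It read 6.58, 8.54 and 9.42 CPM in the striatum (179, 237 and 270 counts), 7.32, 8.10 and 9.18 CPM in cortex and 11.1, 9.44 and 10.8 CPM in hippocampus. The hippocampus lay above both other regions, which overlapped. As its striatal level chose the family, its differences between WT regions are a description, at -0.00 ± 0.16 for striatum against frontal cortex, 0.35 ± 0.16 for hippocampus against frontal cortex and -0.35 ± 0.16 for striatum against hippocampus.

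The high-affinity subunits went different ways. Grik4 had the widest span of the family, 4.02 times from its highest to its lowest WT region by the group means. WT hippocampus read 59.3, 74.0 and 55.3 CPM, frontal cortex 33.4, 36.1 and 37.1 CPM, and striatum 15.4, 15.2 and 16.3 CPM, with wide gaps between the regions. Striatum lay below hippocampus by a log2 fold change of -2.002 ± 0.11 (edgeR adjusted p = 4.8e-07) and below frontal cortex by -1.18 ± 0.11 (edgeR adjusted p = 1.5e-05), while hippocampus exceeded frontal cortex by 0.82 ± 0.11 (edgeR adjusted p = 0.00033). Within lane 5, with 1 WT library against 1, the last of these was 0.59. The mutant values were -2.34 ± 0.064, -1.44 ± 0.064 and 0.90 ± 0.060 (edgeR adjusted p = 8.2e-10, 2.2e-08 and 1.2e-06). Grik5, by contrast, was close to even. It read 376, 309 and 266 CPM in WT striatum, 300.1, 272 and 304 CPM in frontal cortex and 250.1, 276 and 223 CPM in hippocampus, and neighbouring regions overlapped. In WT mice its differences were 0.12 ± 0.13, -0.23 ± 0.13 and 0.35 ± 0.13 for striatum against frontal cortex, hippocampus against frontal cortex and striatum against hippocampus, none past the threshold (edgeR adjusted p = 0.482, 0.202 and 0.0626). The last of these, striatum against hippocampus, ranged from 0.20 without WT striatum replicate 1 to 0.46 without WT striatum replicate 3. Grik5 passed there by DESeq2, in the fit of all 18 libraries, without WT striatum replicate 3 and without WT hippocampus replicate 2. In mutant mice the striatum exceeded frontal cortex by 0.37 ± 0.078 and hippocampus by 0.39 ± 0.078 (edgeR adjusted p = 0.0021 and 0.0020), and hippocampus against frontal cortex was -0.02 ± 0.078 (edgeR adjusted p = 0.873). Whether these differences changed with genotype is not tested here, since that comparison entered the choice of the family.

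**Figure D3:**
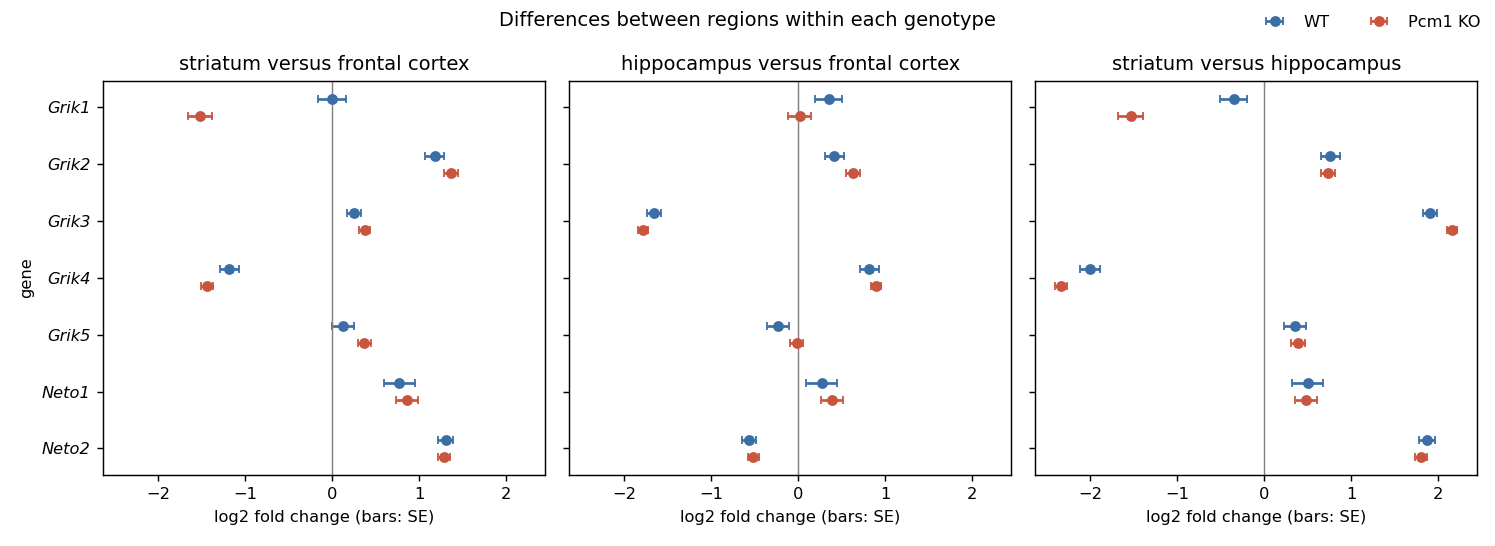
Log2 fold change (x axis, with SE bars) of each gene (y axis) in the 3 contrasts between regions, for WT (blue, 9 libraries) and Pcm1 KO (red, 9 libraries) fitted apart. Every gene lies on the same side of 0 in both genotypes in all 3 panels, though some points of Grik1 and Grik5 lie close to 0. These are WT Grik1 in striatum against frontal cortex (-0.00066) and mutant Grik1 (0.02) and Grik5 (-0.02) in hippocampus against frontal cortex. Mutant Grik1 lies at -1.52 and -1.54 in the panels with the striatum.

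The auxiliary genes both peaked in the striatum. Neto2 read 227, 242 and 202 CPM in WT striatum, 94.8, 90.6 and 86.7 CPM in frontal cortex and 58.4, 66.3 and 59.4 CPM in hippocampus, without overlap. Striatum exceeded frontal cortex by 1.31 ± 0.086 and hippocampus by 1.87 ± 0.088, and hippocampus lay below frontal cortex by -0.57 ± 0.086 on the log2 scale (edgeR adjusted p = 1.4e-06, 1.5e-07 and 0.00078). Within lane 5, with 1 WT library against 1, the last was -0.53. In the mutants these differences were 1.29 ± 0.067, 1.80 ± 0.068 and -0.51 ± 0.066 (edgeR adjusted p = 6.7e-08, 6.5e-09 and 0.00013). The order was thus that of Grik3, although the step from cortex to striatum was larger in Neto2. Neto1, whose product also binds NMDA receptors, read 185, 179 and 184 CPM in WT striatum, 104, 105 and 113 CPM in frontal cortex and 109, 179.6 and 101 CPM in hippocampus. Its hippocampus libraries were split, with replicate 2 at the striatal level and the other two at the cortical level. Neto1 was higher in striatum than in frontal cortex by 0.77 ± 0.18 (edgeR adjusted p = 0.0060). Hippocampus against frontal cortex gave 0.27 ± 0.18 (edgeR adjusted p = 0.285). Against hippocampus, the striatum differed by 0.50 ± 0.18, which missed the threshold (edgeR adjusted p = 0.0603) and passed it with a block by animal, at 0.53 (edgeR adjusted p = 0.0331), and without WT hippocampus replicate 2, at 0.81 (edgeR adjusted p = 4.9e-05). Neto1 also passed there by DESeq2, without the count filter, in the fit of all 18 libraries and with the lane as a covariate. In the mutants the differences were 0.86 ± 0.13 and 0.48 ± 0.13 (edgeR adjusted p = 0.00018 and 0.0099). Mutant hippocampus exceeded frontal cortex by 0.39 ± 0.13 (edgeR adjusted p = 0.0298), a call lost with the lane as a covariate, at 0.21 (edgeR adjusted p = 0.273), in the fit of all 18 libraries, at 0.39 (edgeR adjusted p = 0.0764), and without any 1 of the 3 mutant frontal cortex libraries. Without mutant hippocampus replicate 2 this Neto1 difference was 0.20 (edgeR adjusted p = 0.0350). Per kilobase, Neto2 made up 62.4% ± 2.48 of the summed level of both genes in WT striatum, 53.5% ± 2.29 in frontal cortex and 40.1% ± 5.79 in hippocampus, so that the more abundant of the pair changed between regions.

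Other members were also highest in hippocampus replicate 2, though without a gap as wide as that of Neto1. In WT hippocampus, replicate 2 was the highest library for 5 of the 7 members (Grik2, Grik4, Grik5, Neto1 and Neto2), and in mutant hippocampus replicate 2 was the highest for all 7. Some of these leads were small, as in mutants for Grik3 (47.40 against 47.34 CPM) and Grik5 (312 against 308 CPM). Neto1 read 133, 182 and 124 CPM in the mutant hippocampus libraries, so its replicate 2 stood apart there too. Both replicate 2 libraries came from the male of their group, with 3289 and 3165 counts on 4 genes of the Y chromosome against 0 to 3 in the others. The summed markers of cortical excitatory neurons were also highest in these libraries, at 2169 CPM in WT (1729 and 1636 CPM in the others) and 2728 CPM in mutants (2401 and 2188 CPM). Interneuron markers behaved alike, at 764 CPM in WT against 621 and 653 CPM, and at 834 CPM in mutants against 700.3 and 716 CPM. Markers of thalamus and habenula were lowest there, at 278 CPM in WT against 584 and 539 CPM, and at 126 CPM in mutants against 141 and 310 CPM. Oligodendrocyte markers were lowest there too, at 3936 CPM in WT against 7557 and 6260 CPM, and at 2955 CPM in mutants against 4110 and 4748 CPM. The septum sum was also lowest, at 80.3 CPM in WT against 160.4 and 227 CPM and at 83.5 CPM in mutants against 86.3 and 118 CPM. Within it, Zic1 and Zic4 were lowest, but Trpc4 was highest in the same libraries (46.3 CPM in WT and 72.3 CPM in mutants). Choroid plexus markers were at 212 CPM in the mutant library against 2312 and 4070 CPM, but at 2307 CPM in the WT one against 6159 and 2093 CPM. In the other groups, the library with high counts on the Y genes was the highest for 2 members in WT striatum and 1 in mutant frontal cortex. It was the highest for 0 in WT frontal cortex and in mutant striatum. WT frontal cortex replicate 3, with 5 such counts, was the highest for 6. The share of all genes that were highest in each library was not counted. The part of sex or of the dissected tissue in the hippocampal levels was not tested.

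Between genotypes the members were in view when the family was chosen, so the following values are a description. In the mutant striatum Grik1 read 2.93, 3.02 and 3.91 CPM (82, 95 and 108 counts), all below the lowest WT value of 6.58 CPM. The mutant mean of 3.29 ± 0.539 CPM was 40.2% of the WT mean of 8.18 ± 1.46 CPM (SD, n = 3). The log2 fold change was -1.31 ± 0.18 (SE) and ranged from -1.46 to -1.20 when 1 library was left out, the smallest size being that without WT striatum replicate 3. In frontal cortex the mutants read 8.75, 9.88 and 9.73 CPM, a log2 fold change of 0.20 ± 0.11, and in hippocampus 8.39, 10.5 and 9.96 CPM, a log2 fold change of -0.14 ± 0.13. In these 2 regions the genotypes overlapped. Between regions of the mutants, Grik1 differed by -1.52 ± 0.14 between striatum and frontal cortex and by -1.54 ± 0.14 between striatum and hippocampus, and hippocampus against frontal cortex gave 0.02 ± 0.13. Within lane 4, mutant striatum lay below mutant frontal cortex by -1.33 log2 CPM (2 libraries against 1), and within lane 5, WT striatum against WT frontal cortex gave -0.18 (3 against 1). The share of Grik1 in the summed subunit level fell to 0.443% ± 0.0584 in the mutant striatum.

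Several marker lists moved with genotype in the striatum. Of 12 lists, 2 were higher in the mutants without overlap (striatal projection neurons, 6244 to 6675 against 5162 to 6128 CPM, and hippocampal genes, 296 to 383 against 243 to 273 CPM). Most of the hippocampal sum was Wfs1 (means of 277 CPM in mutants and 194 CPM in WT), whereas Prox1 of the same list was lower in the mutants without overlap (22.7 to 28.5 against 32.6 to 47.6 CPM). Another 4 were lower: oligodendrocytes (4424 to 7173 against 7303 to 7395 CPM), their precursors (177 to 201 against 209 to 236 CPM), astrocytes (990.2 to 1024 against 1033 to 1146 CPM) and thalamus and habenula (117 to 127 against 132 to 248 CPM). Within these lists, the precursor sum differed through Olig1 (means of 105 CPM in mutants and 137 CPM in WT), with Pdgfra at 66.9 and 66.6 CPM, and Gja1 of the astrocyte list was higher in the mutant mean (249.6 against 231 CPM). The interneuron list overlapped, at 1564 to 1637 CPM in mutants and 1482 to 1679 CPM in WT, but most of its sum was Gad1 and Gad2, which striatal projection neurons express too. Of its narrower markers, Pvalb averaged 25.9 CPM in mutants (10.2 to 46.8) and 47.4 CPM in WT (27.8 to 69.4), and Sst averaged 129 and 130.3 CPM, both with overlap. The part of cell composition, of lane or of the library with choroid plexus RNA in the striatal values was not tested.

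Neto2 was the only member whose mutant libraries lay above the WT ones in all 3 regions. The mutant libraries read 112, 119 and 123 CPM in frontal cortex, 297, 272 and 292 CPM in striatum and 84.7, 87.1 and 77.2 CPM in hippocampus. The lowest of them in each region exceeded the highest WT library. Relative to WT, the mutant means stood at 130.2% in frontal cortex, 128% in striatum and 135% in hippocampus, with log2 fold changes of 0.37 ± 0.059, 0.36 ± 0.081 and 0.42 ± 0.079. Within lanes that held both genotypes, the difference in log2 CPM was 0.31 in lane 4 and 0.48 in lane 5 for frontal cortex, and 0.56 in lane 3 and 0.38 in lane 5 for hippocampus. Without WT striatum replicate 3 the striatal value was 0.29. These 3 values are not independent, since each animal gave every region. Neto2 lies on the chromosome of Pcm1, 44.3 Mb from it. In frontal cortex, 2 marker sums were also higher in the mutants without overlap: cortical excitatory neurons (2906 to 3065 against 2534 to 2584 CPM) and thalamus and habenula. In the first, Slc17a7 averaged 2340 CPM in mutants and 1942 CPM in WT, but Cux2 (165.0 and 166.0 CPM) and Neurod6 (110.7 and 111.0 CPM) were no higher. In the second, Rora (153 and 134 CPM) and Slc17a6 (17.8 and 12.5 CPM) were higher. Tcf7l2 (4.61 and 5.43 CPM), Lef1 (7.76 and 9.15 CPM) and Prkcd (5.50 and 8.51 CPM) of that list were lower. Another 5 lists were lower, among them oligodendrocytes and microglia. In hippocampus, cortical excitatory markers were higher and those of oligodendrocyte precursors and endothelium lower, although single genes went the other way, such as Cux2 of the cortical list (22.6 CPM in mutants, 31.6 CPM in WT) and Pdgfra of the precursor list (63.8 and 61.0 CPM). Their part in the Neto2 values was not tested. The Neto2 share of the summed Neto level was 59.1% ± 1.92, 65.9% ± 1.25 and 43.9% ± 3.88 in the mutant frontal cortex, striatum and hippocampus.

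**Figure D4:**
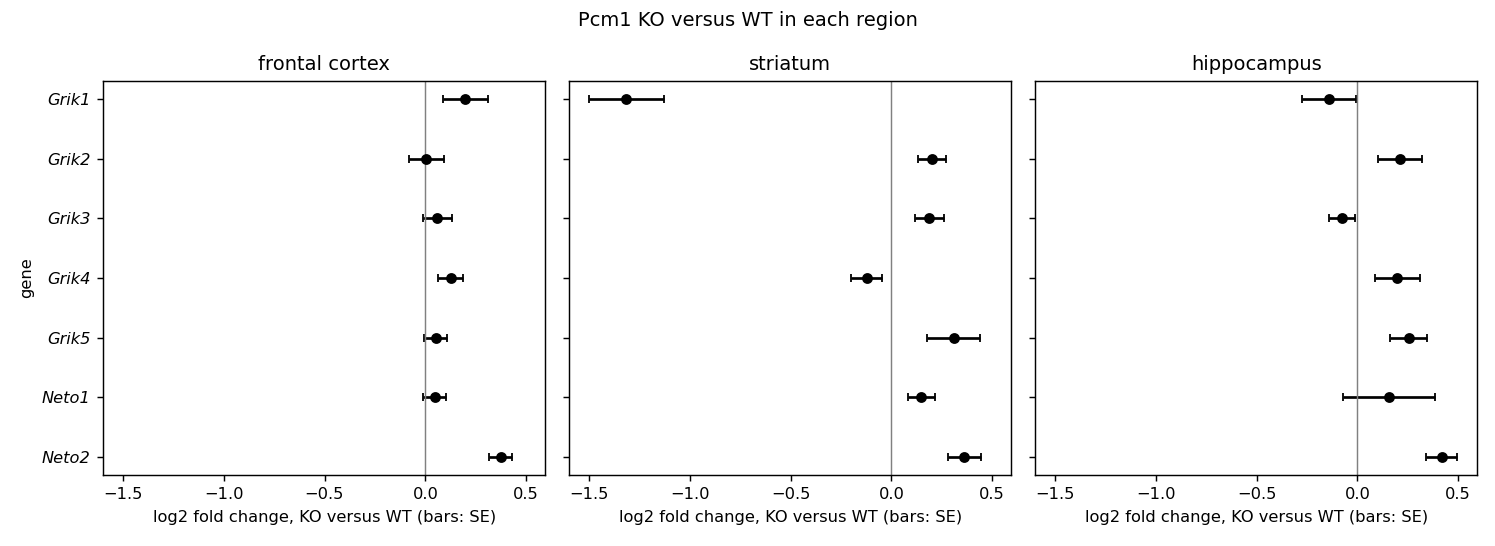
Log2 fold change of Pcm1 KO against WT (x axis, with SE bars) for each gene (y axis) in frontal cortex, striatum and hippocampus, each fitted on 6 libraries. Neto2 lies at 0.36 to 0.42 in all 3 panels, and Grik1 lies at -1.31 in the striatum and at 0.20 and -0.14 in the others.

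The other 5 members had values between -0.12 and 0.31 on the log2 scale. In striatum, the mutant means of Grik2, Grik3, Grik5 and Neto1 were 115%, 114%, 124% and 111% of the WT means, and that of Grik4 was 91.7%. Their groups did not overlap for Grik2 (123, 106 and 106 CPM in mutants), Grik3 (219.5, 195 and 211 CPM), Neto1 (219, 194 and 193 CPM) and Grik4 (14.3, 14.4 and 14.4 CPM), whereas Grik5 overlapped (402, 348 and 426 CPM). In hippocampus, Grik5 read 308, 312 and 284 CPM in mutants, above every WT library, and Grik3 read 46.2, 47.4 and 47.3 CPM, below every WT library although at 95.9% of the WT mean. Grik2 (68.3, 72.7 and 61.4 CPM), Grik4 (71.7, 78.5 and 68.6 CPM) and Neto1 overlapped there. In frontal cortex, Grik4 read 40.0, 38.0 and 38.9 CPM in mutants, above the WT range of 33.4 to 37.1 CPM, and Grik2, Grik3, Grik5 and Neto1 overlapped at 101% to 105% of their WT means.

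By edgeR's quasi-likelihood test at an adjusted p under 0.05, 1 member (Neto2, higher) was called in frontal cortex, where 1.74% of all genes were called, none in striatum (0.0285%) and none in hippocampus (0.0171%). At an unadjusted p under 0.05 the counts were 1 in frontal cortex (15.3% of all genes), 5 in striatum (4 higher, 1 lower; 13.5%) and 2 in hippocampus (both higher; 9.89%). DESeq2 called 1 member in frontal cortex (Neto2; 3.93% of all genes), 2 in striatum (Grik1 lower, Neto2 higher; 2.78%) and 1 in hippocampus (Neto2; 1.25%). No member was called by edgeR in frontal cortex at an adjusted p under 0.01 (0.182% of all genes) or with a change of at least 1.5-fold (0.342%). The Neto2 call in frontal cortex was lost with the lane as a covariate, at a log2 fold change of 0.40, and without WT replicate 2 or any of the 3 mutant replicates. Members whose groups did not overlap numbered 2, 6 and 3 of 7 in frontal cortex, striatum and hippocampus, against 21.3%, 19% and 17.1% of all genes. Since the genotype contrast entered the choice of the family, nothing is read from these counts.

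Genes known to bind, carry, modify or edit kainate receptors were listed by name, and 18 of 19 were matched and tested. None was called between genotypes by edgeR in any region, where 1.74%, 0.0285% and 0.0171% of all genes were called. At an unadjusted p under 0.05 there were 3 of 18 in frontal cortex, 2 in striatum and 3 in hippocampus, against 15.3%, 13.5% and 9.89% of all genes. DESeq2 called 1, Adarb1 in hippocampus, named here after its value was seen, whose mean level was 342 ± 63.9 CPM in WT and 229.9 ± 31.1 CPM in mutants (SD, n = 3; log2 fold change -0.59 ± 0.16). In hippocampus, markers of thalamus and habenula averaged 467 CPM in WT and 192 CPM in mutants, and those of oligodendrocytes 5918 and 3938 CPM, both with overlap. Cortical excitatory markers were higher in mutants (1845 and 2439 CPM). The part of tissue composition in the Adarb1 values was not tested. Between WT regions 7 of the 18 were called in striatum against frontal cortex (3 higher, 4 lower), 8 in hippocampus against frontal cortex (2 higher, 6 lower) and 9 in striatum against hippocampus (4 higher, 5 lower), against 41.5%, 29.8% and 29.2% of all genes. The C1q-like proteins, which recruit kainate receptors at mossy fibre synapses, had the steepest profiles. C1ql2 averaged 74.4 ± 17.5 CPM in WT hippocampus, 2.60 ± 0.50 CPM in striatum and 0.637 ± 0.183 CPM in frontal cortex, a log2 fold change of 6.86 ± 0.25 for hippocampus against frontal cortex (edgeR adjusted p = 2.5e-07). C1ql3 averaged 209 ± 55.0 CPM in frontal cortex, 117 ± 11.8 CPM in hippocampus and 6.07 ± 1.44 CPM in striatum, a log2 fold change of -5.11 ± 0.23 for striatum against frontal cortex (edgeR adjusted p = 1.2e-07). C1ql2 is also 1 of the 6 hippocampal marker genes.

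Among scaffold and transport genes, Dlg1, which encodes the synaptic scaffold SAP97, was lower in hippocampus than in frontal cortex by -1.01 ± 0.081 and lower than in striatum, the contrast of striatum against hippocampus being 1.27 ± 0.081 (edgeR adjusted p = 1.4e-05 and 1.2e-06). Kif17, a kinesin that carries glutamate receptors in dendrites, was higher in striatum than in hippocampus by 1.24 ± 0.11 (edgeR adjusted p = 1.2e-05). Both had the order of Grik3 and Neto2. Cask, another scaffold of the synapse, was highest in the frontal cortex, with -0.52 ± 0.083 in striatum and -0.77 ± 0.083 in hippocampus (edgeR adjusted p = 0.00060 and 9.8e-05). Snap25, a SNARE protein of transmitter release, was lower in striatum than in frontal cortex by -1.27 ± 0.12 (edgeR adjusted p = 2.2e-05), and Pick1, a scaffold with a PDZ domain, was lower in hippocampus than in frontal cortex by -0.39 ± 0.071 (edgeR adjusted p = 0.0024).

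Over the 18 libraries, the genes whose log2 CPM followed each member most closely were found among 12870 genes by Pearson's r. These correlations are descriptions across libraries that share regions and animals. Grik4 was followed by Slc24a3, Ppfia2 and Sertm1 at 0.994, 0.994 and 0.994. Grik3 was followed by Crip2, Stk32c and Sorcs1 at 0.993, 0.991 and 0.991, and Grik2 by Mpped2, Ppp4r4 and Kcna4 at 0.991, 0.989 and 0.987. For Neto2 the closest were Pde8b, Epor and Gpr83 at 0.984, 0.984 and 0.982, and for Neto1 they were Nsg2, Ccdc106 and Anks1b at 0.963, 0.958 and 0.947. Grik5 had Pcdhgc4, Nat14 and Phyhip at 0.929, 0.929 and 0.926. Grik1, with the lowest counts, had Eif4g2, Ankrd29 and Dusp23 at 0.899, 0.873 and 0.867, and its spread lay mainly in the mutant striatum libraries that chose the family. Within the family, Grik2 and Neto1 reached 0.930, Grik3 and Neto2 0.793, and Grik4 and Neto2 -0.935.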

How the data were processed

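RNA was made into stranded mRNA libraries (KAPA kit), and the values used are gene counts that the authors deposited for 18 libraries, 1 file each. Per the labels and the study's methods, the authors trimmed reads with Trim Galore and cutadapt, aligned them with STAR to GRCm38 (annotation release 73) and counted them with HTSeq, and versions are not given in the sources used here. The strand setting of the counting is not given in the sources used here.

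Between 86.8% and 89.2% of counted reads were assigned to genes, and lines that name no gene were left out. The 17545 of 38561 genes that reached 10 counts in 1 or more libraries were scaled by TMM and tested with edgeR 4.0.16 (R 4.3.3), quasi-likelihood, with Benjamini-Hochberg adjusted p under 0.05 over all of them, prior count 2. DESeq2 1.42.0 was an alternative. Regions were compared within each genotype over 9 libraries, and genotypes within each region over 6. CPM are per 1000000 counts on genes after TMM scaling, and CPM per kilobase uses the union of exons. Tables and plots used Python 3.11.15, and the fits were tested on simulated data.

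The members, partner genes and marker lists were chosen with earlier results of these data known. Partner genes named are the 4 with the smallest p per WT contrast among those called, and the genes most like a member are the 3 with the highest Pearson's r of log2 CPM over the 18 libraries. The animal tags pair regions within a genotype, with correlations of deviations between 0.0801 and 0.386. Replicate numbers were not taken to pair genotypes, since same-number correlations were not all over 0.1 in any region (0.0428 to 0.260 in frontal cortex, 0.0955 to 0.507 in hippocampus and -0.269 to 0.178 in striatum). No 2 libraries of a group matched within sampling noise, the lowest chi-square per degree of freedom being 6.61. The p-values measure the spread between these samples of 3 animals per genotype.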

Additional observations from a re-analysis of the deposited data

Results flagged for a closer look

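The Grik1 difference between genotypes was not the same in striatum and frontal cortex. In a fit of all 18 libraries the log2 fold change of mutants against WT was lower in striatum than in frontal cortex by -1.52 ± 0.21 (SE). It was picked out as a difference of effects between regions. This is the comparison through which the gene was chosen, so it is a description and no test is given. The formal check for outlying samples was not run, since every group had 3 libraries.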

How the results depend on the processing

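No member fold change that passed the threshold changed direction under an alternative. Among those that did not pass it, Neto1 in WT hippocampus against frontal cortex went from 0.27 to -0.15 among the libraries of lane 5 and to -0.03 without WT hippocampus replicate 2, and several values near 0 for Grik1, Grik2, Grik5 and Neto1 also crossed it. The fold changes between genotypes all moved by less than the larger of the 2 group SDs of log2 CPM. Leaving out 1 of 3 libraries shifts a group mean by less than its SD whatever the values. For those fits the outcome was thus nearly fixed in advance, and nothing is read from it. Of the member fold changes between regions, 342 kept their side of the threshold, 8 passed it newly and 7 lost it under alternatives other than leaving out 1 library, for which these numbers were 241, 3 and 8. The members called in hippocampus against frontal cortex fell from 4 to 2 in WT and from 5 to 3 in mutants when a change of at least 1.5-fold was required, and to 1 in WT among the libraries of lane 5, where each arm was 1 library. The partner genes called in WT fell to 4 in striatum against frontal cortex with the 1.5-fold limit and to 4 in hippocampus against frontal cortex among the libraries of lane 5. Between genotypes in frontal cortex, 0 members were called at an adjusted p under 0.01, with the 1.5-fold limit or with the lane as a covariate (0.165% of all genes), and 0 to 1 members and 0 to 1 partner genes when 1 library was left out. In striatum, 2 members were called by DESeq2, 1 without the count filter (0.226% of all genes) and 1 in a fit of all 18 libraries (0.308%). In hippocampus, DESeq2 and the fit of all 18 libraries (1.17% of all genes) each called 1 member and 1 partner gene. With the longest transcript in place of the exon union, the Grik5 share was 70.5% in WT frontal cortex and 71.0% in WT hippocampus. By Spearman's rho, 6 of the 21 most alike genes stayed among the top 3. Apart from the lone libraries of lane 5, the cause of these moves was not tested.

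With a replicate block by animal, the members called between regions numbered 5, 4 and 5 in WT (48.1%, 37.0% and 35.1% of all genes) and 7, 5 and 7 in mutants (56.4%, 43.9% and 47.2%). With a replicate block by number, which does not pair the genotypes, the members called between genotypes were 1, 0 and 0, and over all genes 428 rose and 237 fell in frontal cortex, against 247 and 59 without the block. That block called 0.0171% of all genes in striatum and 0.0513% in hippocampus. The lane could not be fitted beside genotype in the striatum. Grik1 had 82 to 270 counts per striatum library, which limits the precision of its fold change.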
